A study of Mus musculus with 2 samples.

Results

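The genes described here build and run the mitotic chromosome machinery, together with the motor proteins that share their family with it. They comprise the centromere protein genes with a single-letter name (*Cenpa* to *Cenpx*), the numbered kinesins (*Kif*), the spindle checkpoint and outer kinetochore genes *Bub1*, *Bub1b*, *Mad2l1*, *Knl1*, *Ndc80*, *Nuf2*, *Spc24* and *Spc25*, the shugoshins *Sgo1* and *Sgo2a*, and the Aurora and polo-like kinases. Chosen by symbol, they numbered 74 of the 31053 genes listed for each library. Of these, 20 were centromere protein genes, 10 checkpoint and outer kinetochore genes, 6 kinases, 12 mitotic kinesins, 15 transport kinesins and 11 other kinesins. The centromere protein group rests on the symbol alone, *Cenpj* included, and not on where each protein acts.

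They were read in cultured primary brain pericytes (PCs), the mural cells that wrap brain capillaries, from C57BL/6N wild type female mice. Brains of 6 mice aged 6 to 8 weeks were pooled for an isolation. A brain digest depleted of myelin was plated, first in an endothelial and later in a pericyte growth medium. The cells were grown with no other cell type added for 5 passages (PC5) or 20 passages (PC20). Each passage gave 1 library of single cells. By the methods of the study the passages came from separate isolations, whereas the deposited description speaks of 1, so that the passage and the isolation cannot be told apart. With 1 library per passage there was no replicate and no test between passages was made.

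Cells with more than 1000 genes and under 20% of UMIs from mitochondrial genes were kept, 9950 of 10629 barcodes in PC5 and 4749 of 4884 in PC20. UMIs are molecular tags that count single captured RNA molecules. Depth over the kept cells was 223054273 UMIs for PC5 and 191122251 for PC20, at a median of 21700 and 33424 per cell, and 20 barcodes of kept cells occurred in both libraries. The summed level of 5 pericyte markers was 53.9 CPM (UMIs scaled to a library total of 1000000) in PC5 and 8.53 CPM in PC20. Of the 5, 1 had 3 UMIs or fewer in PC5 and 2 did so in PC20. The summed levels of fibroblast markers (1302 against 101 CPM), smooth muscle markers (283 against 49.5 CPM) and endothelial markers (169 against 0.194 CPM) were higher in PC5 too, those of astrocyte markers (151 against 229 CPM) were higher in PC20, and those of microglia and oligodendrocyte markers stayed under 1 CPM in both. What part these markers' cells or levels had in the differences given below was not tested.

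At mitosis each chromosome builds a kinetochore on its centromere. The histone variant CENP-A marks the place, an inner layer of CENP proteins binds it, and the outer NDC80 complex grips the spindle microtubules. Checkpoint proteins such as BUBR1 and MAD2 hold back anaphase until every kinetochore is attached, and Aurora and polo-like kinases correct and time the attachments. Mitotic kinesins push spindle poles apart, move chromosomes and build the midzone at which the cell divides, whereas transport kinesins carry vesicles, organelles and cilium components through the cytoplasm at any stage of the cell cycle. Many mitotic genes carry in their promoter a short element called CHR, which is bound by the DREAM and MuvB complexes, often near CCAAT boxes that are bound by NF-Y.

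The promoters of 4 mitotic and 2 transport kinesins are shown to set the letters of both kinds of motor side by side. Each stretch is 150 bases long, from 120 before to 30 after the RefSeq transcription start on the gene's strand (GRCm38.p6), written 5′ to 3′, with matches to the CHR (TTTGAA or TTCGAA) and to CCAAT on either strand in capitals. *Kif11* is at chr19:37376262-37376411 (+ strand), *Kif23* at chr9:61946770-61946919 (− strand), *Kif4* at chrX:100625945-100626094 (+ strand) and *Kif18b* at chr11:102925095-102925244 (− strand). The transport kinesins *Kif3a* and *Kif21a* are at chr11:53567249-53567398 (+ strand) and chr15:91049922-91050071 (− strand). These 6 were picked after the motif matches and levels had been seen.
Kif11: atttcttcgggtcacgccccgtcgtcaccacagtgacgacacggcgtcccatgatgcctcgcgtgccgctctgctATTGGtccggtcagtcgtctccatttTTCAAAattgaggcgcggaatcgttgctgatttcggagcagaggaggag
Kif23: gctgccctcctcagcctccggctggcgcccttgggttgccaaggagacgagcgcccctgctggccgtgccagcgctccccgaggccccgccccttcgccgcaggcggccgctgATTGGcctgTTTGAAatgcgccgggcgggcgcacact
Kif4: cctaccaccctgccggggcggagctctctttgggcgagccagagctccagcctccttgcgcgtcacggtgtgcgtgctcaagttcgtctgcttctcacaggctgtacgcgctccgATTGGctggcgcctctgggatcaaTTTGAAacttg
Kif18b: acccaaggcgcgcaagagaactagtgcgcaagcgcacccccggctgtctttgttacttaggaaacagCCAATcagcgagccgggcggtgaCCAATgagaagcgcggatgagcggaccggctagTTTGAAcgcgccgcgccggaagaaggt
Kif3a: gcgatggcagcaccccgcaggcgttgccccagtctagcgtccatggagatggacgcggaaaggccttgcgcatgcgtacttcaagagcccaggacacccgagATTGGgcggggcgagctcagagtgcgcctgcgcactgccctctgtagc
Kif21a: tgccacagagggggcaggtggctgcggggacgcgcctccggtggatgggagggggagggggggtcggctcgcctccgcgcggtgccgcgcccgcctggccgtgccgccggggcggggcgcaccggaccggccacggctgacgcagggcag

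In the printed stretches the CHR match of *Kif11*, *Kif23*, *Kif4* and *Kif18b* lies close to the start, with at least 1 CCAAT match before it. *Kif3a* has a CCAAT match and no CHR match, and *Kif21a* has neither in its stretch. Over the full windows of 250 bases before to 50 after the start, both motifs were searched separately on both strands, so that matches may share a base. RefSeq promoters were matched to 65 of the 74 genes, with 73 promoters. A CHR match occurred in 9 of 11 promoters of mitotic kinesins (81.8%) and 1 of 13 promoters of transport kinesins (7.69%), against 19.2% of all 32851 promoters in the table. The single transport promoter was 1 of those of *Kif1a*. The 11 mitotic kinesin promoters include that of *Kif2b*, and no promoter was matched to *Kif20a*. They are therefore not those of the same 11 genes as in the comparison of levels below.

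For the checkpoint and outer kinetochore genes the share was 6 of 10 promoters, for the kinases 2 of 5 and for the centromere protein genes 6 of 23 (26.1%). CCAAT matches were found in 63.6% of the promoters of mitotic kinesins, 69.6% of those of centromere protein genes and 30.8% of those of transport kinesins, against 37.4% of all. Both motifs stood in 6 of 11 mitotic kinesin promoters (54.5%), in 0 of 13 transport kinesin promoters and in 7.52% of all. A match describes letters only and is neither a binding site nor a cause of a level.

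Levels were compared as a log2 ratio with PC5 on top and PC20 below, which makes values negative where PC20 is higher. Parentheses after a value hold its 95% interval, exact Poisson for CPM and exact conditional binomial for a ratio, which covers counting error only. Of the 74 genes, 58 had a mean of both CPM values of at least 5 and entered the counts, and 52 of these reached 5 CPM in both libraries. All mitotic kinesins that entered and most checkpoint and centromere protein genes were higher in PC20, while transport kinesins were split. Past 2-fold, 28 of the 58 (48.3%) were higher in PC20, against 17.3% of the 9387 genes tested, and 6 of the 58 (10.3%) were higher in PC5, against 17.9%. Both shares of all genes tested are also the background for the counts by role given below. The median log2 ratio of the 58 was −0.99, beside 0.01 for all genes tested. Because the counts are of transcript 3′ ends and are not per length, levels are compared between libraries or cells for a gene, and not between genes.

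**Figure D1:**
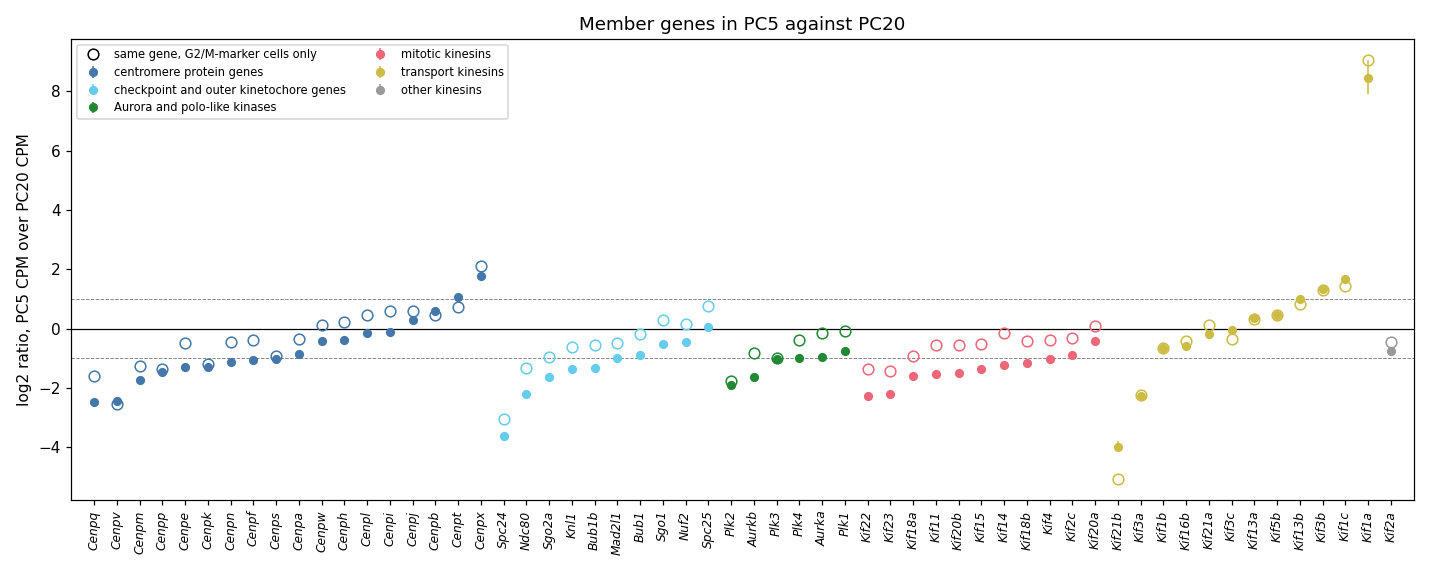
The log2 ratio of PC5 over PC20 CPM for the 58 genes with a mean of at least 5 CPM, coloured by role, with filled points for all kept cells, 95% counting intervals as bars and open circles for G2/M-marker cells only. Dashed lines mark 2-fold. All 11 mitotic kinesins lie below 0 in all kept cells, at a median of −1.35, and all their open circles lie closer to 0, while transport kinesins spread from −3.98 (*Kif21b*) to 8.45 (*Kif1a*).

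The share of cells with many G2/M marker transcripts also differed between the libraries, and what part it had in these levels was not tested. The 26 G2/M marker genes, none of them among the 74, summed to 981 CPM in PC5 and 2658 CPM in PC20, and the 21 S marker genes to 405 and 703 CPM. Kept cells were thinned at random to the same number of UMIs, which left 8847 PC5 and 4474 PC20 cells and set aside 1103 and 275 that were shallower. A cell with at least 26 UMIs of the G2/M markers was called a G2/M-marker cell. A cell with no more than 8 G2/M and 4 S marker UMIs was called a low-marker cell. S-marker cells were the rest with at least 9 S marker UMIs, and all others were called intermediate. G2/M-marker cells made up 908 of 8847 PC5 cells (10.3%, 9.64 to 10.9) and 1345 of 4474 PC20 cells (30.1%, 28.7 to 31.4), S-marker cells 10.2% and 16.0%, and low-marker cells 57.4% and 27.2%. The intervals cover the counting of cells within a library and no spread between cultures, because cells are not replicates of a passage. These classes are ranges of a score, not cell types, and 206 PC5 and 130 PC20 cells lay within 2 UMIs of the G2/M limit. *Mki67*, a proliferation gene outside the marker lists, had 2.59 CPM in low-marker and 120 CPM in G2/M-marker cells of PC5, and 4.07 and 382 CPM in PC20.

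Among the centromere protein genes, 18 entered the comparison, with a median log2 ratio of −0.94, and 9 were past 2-fold higher in PC20 and 2 past 2-fold higher in PC5. The shares of all genes tested were 17.3% toward PC20 and 17.9% toward PC5. *Cenpq* (ENSMUSG00000023919, GRCm38 chromosome 17 from 40923051 to 40935047), an inner kinetochore subunit, stood at 14.7 CPM (14.2 to 15.2) in PC5 against 80.9 CPM (79.7 to 82.2) in PC20. Its log2 ratio of −2.46 was the lowest of the group. *Cenpv*, which takes part in chromosome condensation and alignment, had 8.93 and 48.3 CPM (log2 ratio −2.43, −2.50 to −2.36). Of the other centromere protein genes that entered, 4 were higher in PC5 and the rest had smaller gaps toward PC20.

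*Cenpm*, another inner kinetochore subunit, stood at 14.0 CPM in PC5 against 46.1 CPM in PC20 (log2 ratio −1.72). *Cenpe*, a kinesin-like motor that carries chromosomes to the spindle equator, had 35.9 and 88.9 CPM (log2 ratio −1.31). *Cenpf* (ENSMUSG00000026605, chromosome 1 from 189640606 to 189688086), a large protein of the G2 nuclear envelope and the outer kinetochore, stood at 98.0 CPM (96.7 to 99.3) in PC5 against 204 CPM (202 to 206) in PC20. All 3 were higher in PC20, *Cenpf* by a log2 ratio of −1.06. *Cenpk* had 6.13 and 15.1 CPM (log2 ratio −1.30).

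*Cenpa*, the histone variant that defines the centromere, stood at 82.5 CPM in PC5 against 148 CPM in PC20 (log2 ratio −0.84), short of 2-fold. *Cenpw*, which pairs with CENP-T in a histone fold, had 49.5 and 65.9 CPM, and *Cenph* had 10.5 and 13.8 CPM. *Cenpb*, which binds a satellite DNA box and overlaps *Spef1* on the same strand, went the other way with 112 CPM in PC5 and 74.4 CPM in PC20 (log2 ratio 0.58, 0.55 to 0.61).

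*Cenpx* (ENSMUSG00000025144, chromosome 11 from 120710942 to 120713738) stood at 100.2 CPM (98.9 to 102) in PC5 against 29.5 CPM (28.8 to 30.3) in PC20 (log2 ratio 1.76). It encodes a small histone-fold protein that also works in the Fanconi anaemia pathway of DNA repair. The other gene past 2-fold higher in PC5 was *Cenpt*, the anchor of the NDC80 complex, with 12.3 and 5.89 CPM and a log2 ratio of 1.07 (0.97 to 1.17). The remaining centromere protein genes had a mean under 10 CPM. Those of them past 2-fold higher in PC20 were *Cenpn*, *Cenpp* and *Cenps*, with log2 ratios of −1.12, −1.48 and −1.04.

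The 10 checkpoint and outer kinetochore genes all entered the comparison, at a median log2 ratio of −1.16. Past 2-fold, 5 were higher in PC20 and 0 higher in PC5. The widest gap was that of *Spc24* (ENSMUSG00000074476, chromosome 9 from 21755442 to 21760303), a subunit of the NDC80 complex, with 9.12 CPM (8.73 to 9.52) in PC5 against 112 CPM (111 to 114) in PC20. This is a log2 ratio of −3.62 (−3.69 to −3.55), and a *Spc24* UMI was found in 7.60% of thinned PC5 cells and 53.3% of thinned PC20 cells. For comparison, the highest share among 10 genes of other lineages was 0.384% in PC5 and 0.0224% in PC20.

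*Ndc80*, which binds microtubules, stood at 4.69 CPM in PC5 against 21.7 CPM in PC20 (log2 ratio −2.21). *Sgo2a*, which protects centromeric cohesin, had 16.1 and 49.7 CPM (log2 ratio −1.63). *Knl1*, the scaffold on which checkpoint proteins gather, had 17.2 and 44.4 CPM, and *Bub1b*, which encodes BUBR1, had 11.6 and 29.1 CPM, log2 ratios of −1.37 and −1.33. The rest were short of 2-fold. *Mad2l1*, which encodes MAD2, had 16.7 and 33.1 CPM (log2 ratio −0.99, −1.05 to −0.93) and an interval that holds the 2-fold limit. *Bub1*, a checkpoint kinase, had 17.0 and 31.4 CPM, *Sgo1*, a cohesin protector, 24.9 and 35.3 CPM, and *Nuf2*, the partner of *Ndc80*, was at a log2 ratio of −0.44 (−0.52 to −0.37). *Spc25*, the partner of *Spc24*, stood at 38.4 CPM in PC5 against 36.6 CPM in PC20, the only positive log2 ratio of the group at 0.07 (0.02 to 0.12).

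All 6 kinases were higher in PC20, 3 of them past 2-fold. *Aurkb*, the kinase of the chromosomal passenger complex, stood at 14.3 CPM in PC5 against 44.5 CPM in PC20 (log2 ratio −1.63, −1.69 to −1.57). *Plk4*, which starts centriole duplication, had 23.4 and 46.7 CPM with an interval of the log2 ratio from −1.05 to −0.95, and *Aurka*, the spindle pole kinase, had 18.5 and 35.5 CPM (log2 ratio −0.94). *Plk1*, which acts from mitotic entry to cytokinesis, had 21.9 and 36.9 CPM and the smallest gap of the kinases, a log2 ratio of −0.75.

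*Plk2* (ENSMUSG00000021701, chromosome 13 from 110395046 to 110400844) and *Plk3* are polo-like kinases known as early response and stress genes rather than mitotic ones. *Plk2* stood at 57.3 CPM (56.3 to 58.3) in PC5 against 212 CPM (209.9 to 214) in PC20 (log2 ratio −1.89). *Plk3* had 18.1 and 37.0 CPM (log2 ratio −1.03, −1.09 to −0.97). Within a library their levels differed by less than 2-fold between G2/M-marker and low-marker cells.

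Of the 12 mitotic kinesins, 11 entered the comparison. All 11 were higher in PC20, 9 of them past 2-fold, and their median log2 ratio was −1.35. Summed over these 11, the level was 118 CPM in PC5 and 316 CPM in PC20. The widest gaps were those of *Kif22*, a chromokinesin that pushes chromosome arms from the poles, with 5.66 CPM (5.35 to 5.98) in PC5 against 27.2 CPM (26.5 to 28.0) in PC20, and of *Kif23*, the centralspindlin motor of cytokinesis, with 12.1 and 56.0 CPM. Their log2 ratios were −2.27 (−2.36 to −2.18) and −2.21 (−2.27 to −2.15).

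*Kif18a*, which dampens chromosome movement at the spindle equator, stood at 7.95 CPM in PC5 against 23.9 CPM in PC20 (log2 ratio −1.59). *Kif11* (ENSMUSG00000012443, chromosome 19 from 37376403 to 37421859), the motor that drives the spindle poles apart, had 14.3 and 41.2 CPM (log2 ratio −1.52). *Kif15*, which helps *Kif11* hold the spindle bipolar, had 11.6 and 29.5 CPM (log2 ratio −1.35). The motors of spindle bipolarity thus stood in the middle of the group.

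*Kif20b*, a motor of late cytokinesis, stood at 15.5 CPM in PC5 against 43.4 CPM in PC20 (log2 ratio −1.48). *Kif4*, a chromokinesin that shapes the midzone, had 15.1 and 30.4 CPM (log2 ratio −1.02, −1.08 to −0.95). *Kif2c*, which takes microtubules apart at centromeres, had 10.8 and 20.2 CPM (log2 ratio −0.90). *Kif20a*, which brings the passenger complex to the midzone, had 14.9 and 20.0 CPM and the smallest gap of the mitotic kinesins, a log2 ratio of −0.42 (−0.49 to −0.36). *Kif14* and *Kif18b*, with a mean under 10 CPM, had log2 ratios of −1.22 and −1.17. *Kif2b* had 0 UMIs in both libraries, where the floor of 3 UMIs equals 0.0134 CPM in PC5 and 0.0157 CPM in PC20.

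The 15 transport kinesins showed no common direction. Of the 12 that entered the comparison, 6 were higher in PC5 and 6 in PC20. Past 2-fold were 4 and 2 of them, against 17.9% and 17.3% of all genes tested. Their median log2 ratio was 0.15. With a level filter of 1 CPM, which lets in 1 more gene, the median was −0.061. *Kif5b*, the ubiquitous conventional kinesin heavy chain, stood at 411 CPM (408 to 414) in PC5 against 298 CPM (295 to 300.2) in PC20 (log2 ratio 0.46, 0.45 to 0.48).

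*Kif1a* (ENSMUSG00000014602, chromosome 1 from 93015464 to 93101951), which carries synaptic vesicle precursors in neurons, had the widest gap of all 74 genes. It had 10625 UMIs or 47.6 CPM (46.7 to 48.5) in PC5 and 26 UMIs or 0.136 CPM (0.0889 to 0.199) in PC20 (log2 ratio 8.45, 7.90 to 9.07). A *Kif1a* UMI was found in 36.3% of thinned PC5 cells and 0.112% of thinned PC20 cells. *Kif1c*, a carrier of dense core vesicles and integrins that overlaps *Mir6925* on the same strand, had 57.8 and 18.0 CPM (log2 ratio 1.69). *Kif1b*, a carrier of mitochondria and vesicles, went the other way with 57.5 and 91.3 CPM (log2 ratio −0.67). The 3 members of the kinesin-3 subfamily KIF1 thus did not share a direction.

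*Kif3a*, *Kif3b* and *Kif3c* encode the motor subunits of kinesin-2, which serves cilium assembly and vesicle transport. *Kif3a* (ENSMUSG00000018395, chromosome 11 from 53567379 to 53601967) stood at 14.5 CPM in PC5 against 70.5 CPM in PC20 (log2 ratio −2.28, −2.33 to −2.22). Its partner *Kif3b* (ENSMUSG00000027475, chromosome 2 from 153291413 to 153333390) had 30.9 and 12.3 CPM (log2 ratio 1.33, 1.26 to 1.40). *Kif3c*, the alternative partner of *Kif3a*, had 12.1 and 12.6 CPM, and its interval from −0.14 to 0.02 holds 0.

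*Kif13b*, which carries vesicles to the cell edge, stood at 13.9 CPM in PC5 against 6.94 CPM in PC20 (log2 ratio 1.00, 0.91 to 1.09) at the 2-fold limit, and *Kif13a* had 12.5 and 9.79 CPM. *Kif16b*, an early endosome motor, had 8.08 and 12.2 CPM (log2 ratio −0.59). *Kif21a* and *Kif21b* encode motors that hold back microtubule growth. *Kif21a* had 39.0 and 44.7 CPM (log2 ratio −0.20), whereas *Kif21b* had 1.08 and 17.1 CPM (log2 ratio −3.98, −4.17 to −3.79), the lowest of the 58.

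The neuronal heavy chains *Kif5a* and *Kif5c* and the dendritic and ciliary motor *Kif17* stayed under the level filter. *Kif5a* had 31 UMIs in PC5 against 6 in PC20, *Kif17* 16 against 24, and *Kif5c* had 61 and 902 UMIs. *Kif5c* reached 4.72 CPM in PC20 (log2 ratio −4.11, −4.51 to −3.73).

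Of the 11 other kinesins 1 entered the comparison. *Kif2a*, which takes microtubules apart at spindle poles and in axons, stood at 68.4 CPM in PC5 against 116 CPM in PC20 (log2 ratio −0.77). The other 10 had a mean of at most 2.50 CPM, and *Kif12* had 0 UMIs in both libraries. Singled out after their values were seen, *Kif26b* had 669 UMIs in PC5 against 58 in PC20, and *Kif6* 65 against 414. The remaining 2 of the 16 genes under the filter were *Cenpo* and *Cenpu*, both short of 2-fold.

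Genes whose products bind each other in 1 complex did not all have like ratios. The grouping into complexes, which holds some genes of a mean under 10 CPM, was made after the values had been seen. *Cenpo* and *Cenpu* in it are under the level filter. Spans of unrelated genes were not computed, so whether these spans are unusual was not tested. In the NDC80 complex the log2 ratios ran from −3.62 (*Spc24*) to 0.07 (*Spc25*), a span of 3.69. The 2 ends are direct partners. In kinesin-2 they ran from −2.28 to 1.33, a span of 3.61, and in the CENP-T/W/S/X group from −1.04 (*Cenps*) to 1.76 (*Cenpx*), a span of 2.80, although CENP-S and CENP-X form a dimer. Narrower spans were those of CENP-O/P/Q/U (1.71), CENP-H/I/K/M (1.62) and CENP-L/N (0.989). In G2/M-marker cells alone the spans of the first 3 were 3.80, 3.52 and 3.05, about as wide as in all kept cells.

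**Figure D2:**
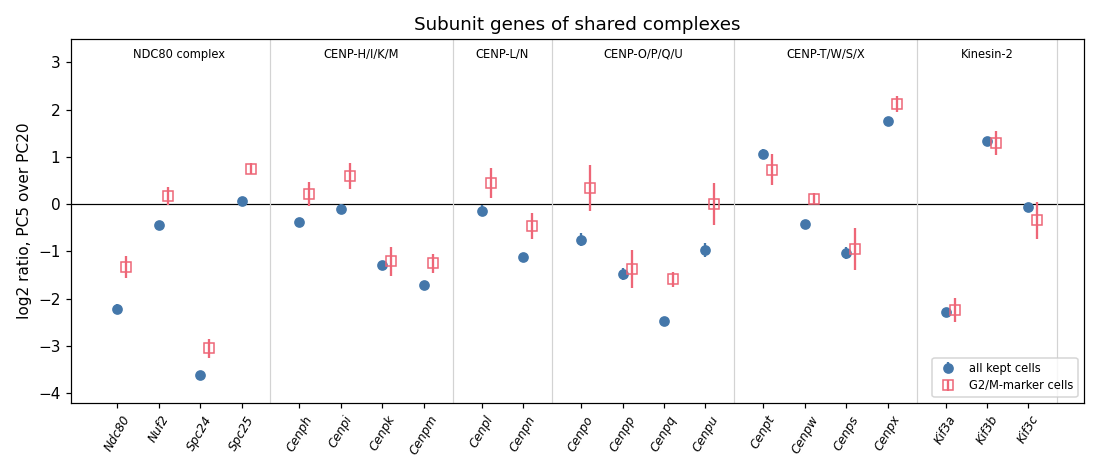
The log2 ratio of PC5 over PC20 CPM for genes of shared complexes, with filled circles for all kept cells, open squares for G2/M-marker cells and 95% counting intervals as bars. *Spc24* and *Spc25* lie at −3.62 and 0.07 in all kept cells and at −3.05 and 0.75 in G2/M-marker cells, and *Kif3a* and *Kif3b* stay on opposite sides of 0 in both.

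Within each library the genes were next compared between G2/M-marker and low-marker cells. Cells are not replicates, and these ratios describe the sums over the cells of 1 library. The classes were cut on other G2/M genes, so higher levels of mitotic genes in G2/M-marker cells partly follow from how the classes were made. Genes were tested where the mean CPM of both classes was at least 5, a filter set anew in each library. A gene low in low-marker cells, such as *Kif11*, could enter only through its level in G2/M-marker cells. For such genes a call past 2-fold was fixed by the filter, here and in the counts by role below. The mitotic kinesins were far higher in G2/M-marker cells, with a median log2 ratio of 5.07 in PC5 and 5.83 in PC20, and 11 of 11 were past 2-fold in each. The transport kinesins had medians of 0.01 and 0.10, and 0 of 11 were past 2-fold in each. These 11 were not all the same genes, because *Kif1a* entered in PC5 only and *Kif21b* in PC20 only. Over all roles, 37 of 55 genes tested in PC5 (67.3%) were past 2-fold higher in G2/M-marker cells, against 5.48% of all genes tested, and 40 of 58 in PC20 (69.0%), against 5.13%. Median UMIs per cell before thinning were higher in G2/M-marker than in low-marker cells, 29144 against 21055 in PC5 and 42723 against 30780 in PC20.

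**Figure D3:**
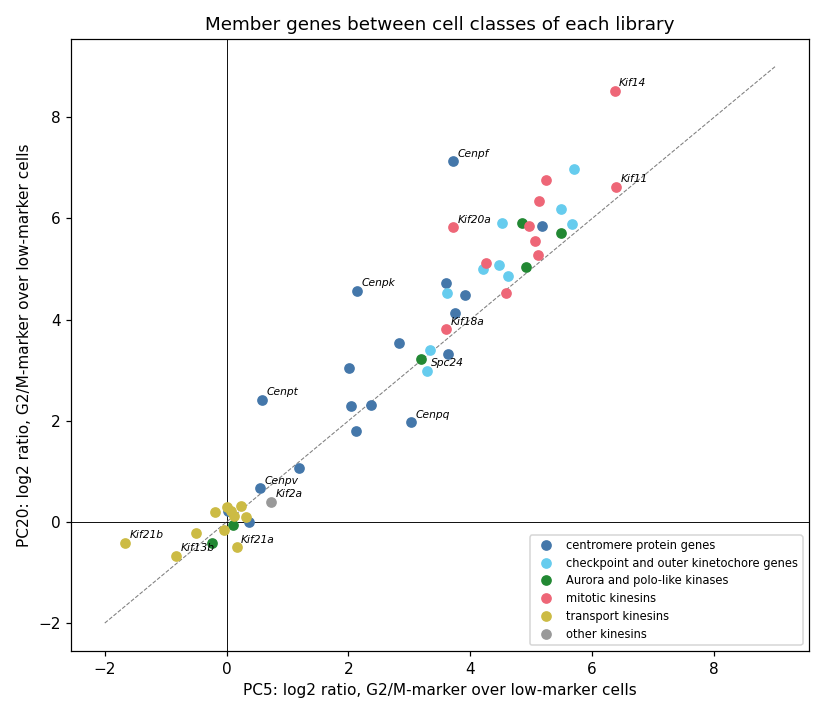
The log2 ratio of CPM in G2/M-marker over low-marker cells for each gene in PC5 (horizontal axis) and PC20 (vertical axis), coloured by role, with a dashed line where both are equal. Mitotic kinesins, checkpoint genes and 4 of the 6 kinases lie at the upper right and transport kinesins near 0, and *Kif21b* rests on 4 UMIs in G2/M-marker cells of PC5.

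*Kif11* had 43 UMIs or 0.807 CPM in low-marker cells and 67.7 CPM in G2/M-marker cells of PC5, and 1.02 and 100.1 CPM in PC20. *Kif23* had 1.43 and 49.0 CPM in PC5, and 3.44 and 133 CPM in PC20. *Kif14*, which had 1 UMI in all low-marker cells of PC20, had the widest ratio there, a log2 ratio of 8.53 (6.04 to 13.83). *Kif18a* had the smallest of the mitotic kinesins in both libraries, 3.60 in PC5 and 3.81 in PC20. Counted per thinned cell, at least 1 UMI of a mitotic kinesin was found in 98.8% of G2/M-marker and 14.9% of low-marker cells of PC5, and in 98.1% and 16.2% of those of PC20. At least 1 UMI of a transport kinesin was found in 98.8% or more of the cells of every class and library. Their summed median was 7 UMIs per thinned cell in every class of PC5 and 6 in every class of PC20. This share was thus near its ceiling and could hardly differ between classes.

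**Figure D4:**
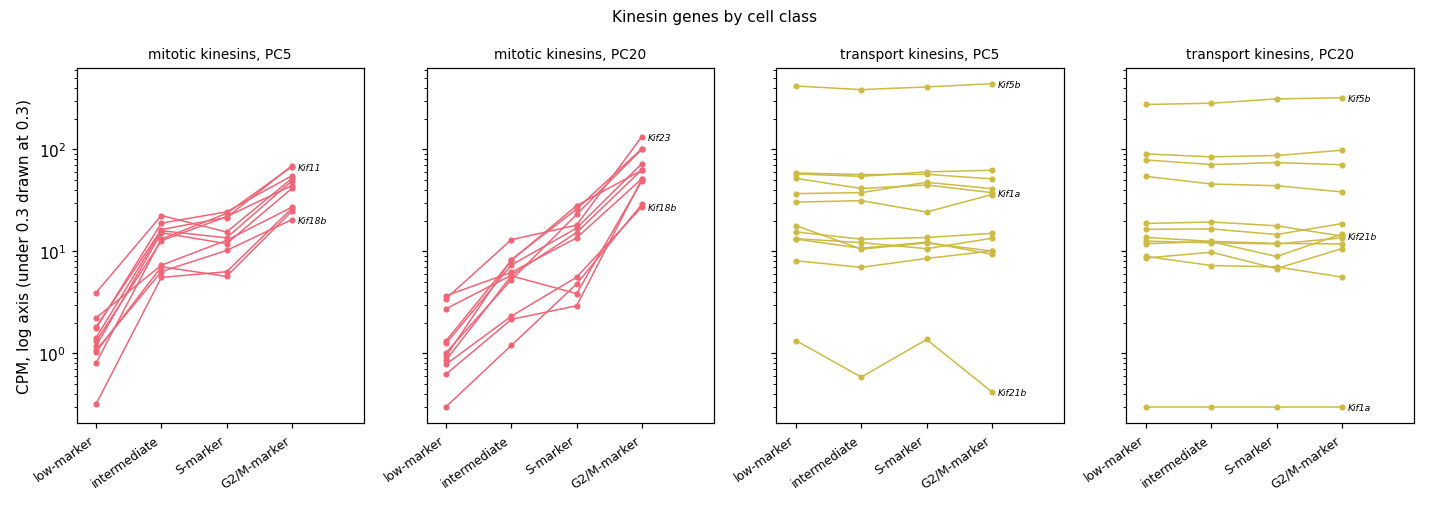
CPM (log axis) of each mitotic and transport kinesin that entered the comparison, over low-marker, intermediate, S-marker and G2/M-marker cells of PC5 and PC20, with 1 line per gene and values under 0.3 CPM drawn at 0.3, as for *Kif1a* in PC20. In sum the mitotic kinesins go from 16.9 CPM in low-marker to 477 CPM in G2/M-marker cells of PC5 and from 16.7 to 739 CPM in PC20, while the lines of most transport kinesins run nearly flat.

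The checkpoint and outer kinetochore genes were higher in G2/M-marker cells in 10 of 10 cases in both libraries, with medians of 4.49 in PC5 and 5.03 in PC20. *Knl1* had the widest log2 ratio, 5.69 (5.34 to 6.06) in PC5 and 6.98 (6.14 to 7.99) in PC20, and *Spc24* the smallest, 3.28 and 2.99. In low-marker cells *Spc24* still had 25.1 CPM in PC20 against 2.48 CPM in PC5. The gap in *Spc24* between the libraries was thus also seen in low-marker cells, at a log2 ratio of −3.34. These cells were not alike in marker level, with medians of 3 G2/M and 1 S marker UMIs in PC5 and 5 and 2 in PC20. What part the cell cycle had in the gap was not tested.

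The kinases divided by kind. *Aurka*, *Aurkb*, *Plk1* and *Plk4* had log2 ratios of 4.92, 5.49, 4.84 and 3.20 between G2/M-marker and low-marker cells of PC5, and of 5.04, 5.72, 5.91 and 3.23 in PC20. *Plk2* had 0.11 (−0.02 to 0.24) and −0.06 (−0.13 to 0.02), and *Plk3* had −0.24 and −0.42. *Plk2* had 215 CPM in low-marker and 207 CPM in G2/M-marker cells of PC20, and 56.7 and 61.1 CPM in PC5, so that its gap between the libraries was about as wide in either class.

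Among the centromere protein genes, 12 of 16 tested in PC5 and 15 of 19 tested in PC20 were past 2-fold higher in G2/M-marker cells, with medians of 2.59 and 2.41. Of all genes tested, 5.48% in PC5 and 5.13% in PC20 were so. *Cenpf* had 28.4 CPM in low-marker and 371 CPM in G2/M-marker cells of PC5, and 3.44 and 482 CPM in PC20. Its log2 ratio was 3.71 (3.62 to 3.80) in PC5 and 7.13 (6.71 to 7.59) in PC20, and in low-marker cells its level was higher in PC5. *Cenpe* had 5.18 and 5.85, and *Cenpa* 3.60 and 4.73. *Cenpb*, *Cenpv* and *Cenpx* were short of 2-fold between these classes in both libraries, with log2 ratios of at most 0.67.

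S-marker cells lay between the other classes for the mitotic kinesins, which summed to 167 CPM there in PC5 and 158 CPM in PC20. From S-marker to G2/M-marker cells 11 of 11 mitotic kinesins were past 2-fold higher in the G2/M-marker cells in both libraries, against 1.30% of all genes tested in PC5 and 1.99% in PC20, with median log2 ratios of S-marker over G2/M-marker cells of −1.69 and −2.12. The checkpoint genes had medians of −1.32 and −1.61. The centromere protein genes were nearer to level, at −0.36 and −0.33. *Cenpf* and *Cenpe* had −3.99 and −3.19 in PC20. The inner kinetochore subunits *Cenph*, *Cenpk* and *Cenpq* had 0.42 (0.15 to 0.69), −0.16 (−0.42 to 0.09) and −0.13 (−0.25 to −0.01) in PC20. In PC5 these 3 had −0.04 (−0.32 to 0.23), 0.35 (−0.01 to 0.71) and −0.69 (−0.93 to −0.45). *Cenpq* was thus higher in G2/M-marker cells in both libraries, by a smaller margin in PC20. *Plk4* had −0.48 in both libraries, and *Plk1* had −1.70 in PC5 and −3.54 in PC20.

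The libraries were also compared within G2/M-marker cells alone. There the medians of the mitotic kinesins, checkpoint genes, kinases and centromere protein genes lay closer to 0 than in all kept cells, and that of the transport kinesins farther from 0. The median log2 ratio of PC5 over PC20 was −0.50 for the mitotic kinesins, −0.52 for the checkpoint genes, −0.61 for the kinases, −0.18 for the centromere protein genes and 0.22 for the transport kinesins, beside 0.11 for all genes tested. With the top 20% of cells of each library taken as G2/M-marker cells, the median of the mitotic kinesins was −1.03. Past 2-fold, 12 of 60 genes (20.0%) were higher in PC20, against 14.2% of the 9391 genes tested, and 4 of 60 (6.67%) were higher in PC5, against 19.5%. The share past 2-fold toward PC20 was thus near the background, while that toward PC5 was below it. Regardless of size, 39 of the 60 log2 ratios lay below 0, against 4255 of the 9391 genes tested. G2/M-marker cells of PC20 still held more of the markers that define them, a median of 48 against 34 UMIs, so the cells compared were not alike in marker level.

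The genes past 2-fold higher in G2/M-marker cells of PC20 were *Spc24* (−3.05), *Ndc80* (−1.33), *Kif22* (−1.35), *Kif23* (−1.44), *Plk2* (−1.76), *Kif3a* (−2.23), *Kif21b* (−5.07) and the 5 centromere protein genes *Cenpv*, *Cenpq*, *Cenpp*, *Cenpm* and *Cenpk*, with log2 ratios from −2.54 to −1.20. The ratio of *Kif21b* rests on very few UMIs in PC5. *Spc24* had 24.1 CPM in G2/M-marker cells of PC5 and 199.8 CPM in those of PC20. *Cenpv* had 10.5 and 61.0 CPM. The genes past 2-fold higher in PC5 were *Kif1a*, *Kif1c*, *Kif3b* and *Cenpx*. *Plk1* had 85.1 and 89.6 CPM (log2 ratio −0.07, −0.20 to 0.05), and *Kif20a* had 51.8 and 48.8 CPM, and the intervals of both hold 0.

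Within low-marker cells the median log2 ratio was 0.45 for the mitotic kinesins and 0.30 for the checkpoint genes, above 0 where all kept cells gave values below 0, beside 0.01 for all genes tested. These cells were not alike in marker level either, with medians of 3 G2/M and 1 S marker UMIs in PC5 and 5 and 2 in PC20. In sum the mitotic kinesins were about level, 16.9 CPM in PC5 and 16.7 CPM in PC20. At a mean of 0.177 and 0.176 UMIs per cell, their median rests on sparse counts. There 11 of the 58 genes (19.0%) were past 2-fold higher in PC20, against 17.4% of all genes tested, and 13 (22.4%) were so in PC5, against 18.3%, so that both shares were near the background. When both libraries were set to the same mix of the 4 classes, the median of the mitotic kinesins was −0.29 and that of the checkpoint genes −0.19, beside 0.06 for all genes tested. The classes in this mix differed in direction. In intermediate cells the mitotic kinesins summed to 141 CPM in PC5 and 65.5 CPM in PC20, and in G2/M-marker cells to 477 and 739 CPM. The mix thus averages over opposite gaps. At that mix 11 of the 58 genes (19.0%) were past 2-fold higher in PC20, against 15.6% of all genes tested, which is near the background. *Spc24* kept −2.98 at the same mix, *Cenpv* −2.40, *Kif3a* −2.35, *Plk2* −1.87 and *Cenpq* −1.85, whereas *Kif11* had −0.30, *Kif15* −0.29 and *Cenpf* 0.23. The transport kinesins had a median of 0.27 within low-marker cells.

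A list of 32 other genes of mitosis, none of them among the 74, was read the same way. Of the 30 that entered the comparison, 14 were past 2-fold higher in PC20, against 17.3% of all genes tested, and 1 was so in PC5, against 17.9%. Their median log2 ratio was −0.88. The lowest was *Cdc20*, the activator of the anaphase-promoting complex, with 10.0 CPM in PC5 and 46.4 CPM in PC20 (log2 ratio −2.21). The highest was *Mis18a*, which helps load CENP-A, with 26.6 and 11.8 CPM (log2 ratio 1.17). In G2/M-marker cells 5 of 32 were past 2-fold higher in PC20, a share near the 14.2% of all genes tested, and the median was −0.20. Between G2/M-marker and low-marker cells, 28 of 31 were past 2-fold higher in G2/M-marker cells in each library. The share of all genes tested was 5.48% in PC5 and 5.13% in PC20.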

How the data were processed

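The authors made the deposited values, raw counts of UMIs for each gene in each cell barcode, from 10x 3′ libraries. Per the file headers and the submitters' processing notes Cell Ranger 5.0 and the mm10 genome were used, and no normalization was applied. Libraries were grouped by passage, 5 or 20. Cells were filtered as in the methods of the study, and no doublet caller was run. Genes were placed with GENCODE M21 on GRCm38, which held all 74 genes and 30934 of the identifiers. CPM was computed from UMIs summed over kept cells with Python 3.11.15, numpy 2.4.6, scipy 1.17.1 and pandas 2.3.3, with no pseudocount. The computation was tested on simulated data.

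The genes, role lists and marker lists were chosen with earlier results of these data known. Genes with a mean of at least 10 CPM were named, others only where a count, complex or near-zero level called for them. G2/M-marker and S-marker limits were the 80th percentile of the marker sums and low-marker limits the 50th, with the libraries weighted equally. The lists were 12 mitotic and 15 transport kinesins, 10 checkpoint and outer kinetochore genes, 6 kinases, 32 other mitotic genes, 26 G2/M and 21 S markers, 10 genes of other lineages and cell type markers.

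Alternatives were a stricter cell filter (more than 2000 genes, under 10% mitochondrial UMIs), thinned cells, a total without mitochondrial and ribosomal protein genes, a mean over cells, a lower level filter, low-marker cells, the same mix of classes and other class limits.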

Additional observations from a re-analysis of the deposited data

Results flagged for a closer look

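The transport kinesin *Kif21a* differed between G2/M-marker and low-marker cells in opposite directions in the libraries. Its log2 ratio of G2/M-marker over low-marker cells was 0.16 (0.00 to 0.32) in PC5 and −0.51 (−0.67 to −0.34) in PC20, with 41.2 against 36.8 CPM in PC5 and 38.2 against 54.3 CPM in PC20. The intervals cover counting error only, and the difference between the libraries was not tested. It was the 1 gene whose intervals lay on opposite sides of 0 when all 74 were scanned for this, with no allowance for the number scanned. The PC5 interval only just cleared 0.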

How the results depend on the processing

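No paired analysis was possible because each passage has 1 library, and for the same reason no library could be left out. Within low-marker cells the median log2 ratio was 0.45 for the mitotic kinesins (−1.35 in all kept cells), 0.30 for the checkpoint genes (−1.16), 0.34 for the centromere protein genes (−0.94) and 0.27 for the transport kinesins (0.15), and 11 genes were past 2-fold higher in PC20 (28) and 13 in PC5 (6), against 17.4% and 18.3% of all genes tested there. At the same mix of classes the medians were −0.29, −0.19 and 0.11 for the mitotic kinesins, checkpoint genes and centromere protein genes, and 11 genes were past 2-fold higher in PC20, against 15.6% of all genes tested. That mix averages over intermediate and G2/M-marker cells, in which the summed levels of each of these lists differed between the libraries in opposite directions. Among low-marker cells *Cenpf* had 3.05, *Cenpk* 1.22, *Kif20b* 0.96, *Knl1* 0.67, *Kif4* 0.50, *Cenpe* 0.19 and *Bub1b* 0.065, and at the same mix *Cenpf* had 0.23 and *Kif4* 0.041, all on the other side of 0 from all kept cells. Genes short of 2-fold in all kept cells changed sign too. Among them *Kif20a* had 2.20 in low-marker cells and 0.70 at the same mix, *Nuf2* 1.56 and 0.52, *Plk1* 1.00 and 0.46, and *Sgo1* 0.53 and 0.60. Thinned cells moved the centromere median to −0.83, and a level filter of 1 CPM moved the transport median to −0.061. With the top 20% of each library as G2/M-marker cells, 1820 in PC5 and 898 in PC20, the mitotic kinesin median there was −1.03 instead of −0.50. The cause of these shifts was not tested. Of the 48 genes with a mean of at least 10 CPM, 0 changed sign under the stricter filter, thinning, the other total or the mean over cells, 15 did so in low-marker cells and 12 at the same mix. Levels near the floor of 3 UMIs limit the ratios against and within low-marker cells, as for *Kif14* in PC20.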
